A study of Mus musculus with 800 samples.

Results

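Nuclei labelled with the enhancer vector AiE0475m were set against nuclei labelled with the enhancer vector AiE0452h, both driving H2B-SYFP2, a yellow fluorescent protein fused to a histone so that it stays in the nucleus. Members were the nuclei whose title names 1 of the 2 vectors and whose library had reads of at least 1000 genes. This left 39 of 40 nuclei of AiE0475m and 35 of 40 of AiE0452h, 74 of the 698 nuclei past that minimum in the whole series. The pair had been selected on measured values, the levels and shares of Pvalb, Sst and Gad1 and of the cell classes, so these values below are a description and no test is built on them.

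Both groups are, per the labels, YFP-positive nuclei of C57Bl/6J mice given a PHP.eB vector, AiP14062 for AiE0475m-H2B-SYFP2-BC and AiP14063 for AiE0452h-H2B-SYFP2-BC, and both come from the anterior lateral motor cortex, a frontal area. PHP.eB is an adeno-associated virus capsid that enters the mouse brain from the blood. The series' design gives a dose of 5e11 viral genomes per mouse in young adulthood and sorting by flow cytometry 3 to 4 weeks later, and it also names striatum and visual cortex as regions that nuclei were sorted from. Each library is 1 nucleus, amplified with SMART-Seq v4, a full-length polyadenylated RNA method without molecule barcodes. The labels give neither the number of mice nor which mouse a nucleus came from. Each vector is therefore 1 sample, nuclei are not replicates, and no p-value or standard error between the vectors is given; intervals cover counting error only.

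Inhibitory cortical interneurons make GABA, for which Gad1 encodes a synthesizing enzyme. Pvalb interneurons contain the calcium buffer parvalbumin, fire fast and contact the soma and proximal axon of pyramidal cells. Sst interneurons release the peptide somatostatin and mostly contact dendrites, and a rare Sst type that also makes Npy, Nos1 and Chodl sends long-range axons. Enhancer vectors of this kind are built to restrict a reporter to such types.

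Both vectors were sequenced to similar depth. The 39 nuclei of AiE0475m had 109499 to 470710 counts (median 259941) and 1332 to 5482 genes with a read (median 3381). The 35 nuclei of AiE0452h had 73205 to 901264 counts (median 272268) and 1215 to 5551 genes (median 3199). Summed counts were 9976810 and 10217540, so 3 counts, the floor used for ratios against 0, correspond to 0.301 and 0.294 CPM (counts divided by the summed total and scaled to 1000000). Library names fall into 2 library series, S40324 with 8 and 11 kept nuclei and S40326 with 31 and 24, for AiE0475m and AiE0452h in that order. The median number of genes with a read was 3408.5 and 2540 in S40324, and 3381 and 3450 in S40326, in the same order.

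The nuclei under 1000 genes stood apart from the rest. The 5 of AiE0452h had 730 to 958 genes, all were in S40324, and markers of oligodendrocytes, the myelin-forming glia, summed to between 26827 and 34597 CPM in them. The 1 of AiE0475m, number 26, had 864 genes. Just inside the minimum were AiE0452h number 14 with 1215 genes and AiE0452h number 4 with 1240 genes, the latter with 25923 CPM of oligodendrocyte markers, and AiE0475m number 21 with 1332 genes. Within each vector 8 pairs of library indices occurred in both library series, and 0 were shared between the vectors. The 7 pairs of nuclei with the same indices and the same class correlated over genes at 0.310 to 0.434 (median 0.360, log2(CPM + 1)), inside the range of 0.156 to 0.480 (median 0.369) of the 781 same-class pairs of nuclei with different indices.

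Gad1 (chr2:70553072-70602014, mm10) was read in 30 of 39 nuclei of AiE0475m (76.9%, exact Clopper-Pearson 95% interval 60.7 to 88.9%) and in 26 of 35 of AiE0452h (74.3%, 56.7 to 87.5%). Its summed level was 839 and 615 CPM, a ratio of 1.36 (95% counting interval 1.32 to 1.41). Among the 20 vectors of the series these levels ranked 1 and 4, and the median of the other 18 was 288 CPM. Gad1 therefore marked about the same share of nuclei under both vectors. Gad1 overlaps the antisense gene Gad1os, and the reads keep no strand, so the 2 cannot be told apart.

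Clusters were formed from all kept nuclei of the series without the genes of the lists used here, and named by markers. Of AiE0475m, 27 of 39 nuclei fell into GABAergic-like clusters (69.2%, 52.4 to 83.0%), and of AiE0452h 29 of 35 (82.9%, 66.4 to 93.4%). Glutamatergic-like nuclei numbered 5 and 4. Striatal projection neuron-like nuclei, in clusters led by genes of the main output neurons of the striatum, numbered 6 of 39 (15.4%, 5.86 to 30.5%) and 0 of 35 (0 to 10.003%), and all 6 were in S40326. Each vector had 1 astrocyte-like nucleus, and AiE0452h 1 oligodendrocyte-like nucleus. The astrocyte-like nucleus of AiE0475m, number 39, had mixed markers, so its cluster name is uncertain. It held 1848 CPM of astrocyte markers, 1117 CPM of oligodendrocyte markers and 1766 CPM of the GABA synthesis, release and uptake genes. In 5 of the 6 striatal projection neuron-like nuclei the markers of these neurons summed to 7499 to 11419 CPM, which goes against the cortical tissue label. The 6th, number 21, goes against its cluster name: it held 350.1 CPM of those markers with no reads of Rgs9, Drd1 or Drd2, 9141 CPM of microglia markers and 6325 CPM of oligodendrocyte markers.

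Markers of other cell types differed between the vectors. The 12 striatal projection neuron markers summed to 1542 CPM in AiE0475m (range over nuclei 0 to 11419, median 536) and 270 CPM in AiE0452h (0 to 891, median 236), where Adora2a, Isl1 and Six3 were among those at 0. Within GABAergic-like nuclei these sums were 437 and 256 CPM. The 10 glutamatergic markers summed to 393 and 175 CPM over all nuclei and to 101 and 55.3 CPM within GABAergic-like nuclei. The part of these cells in the differences over all nuclei was not tested, and levels within GABAergic-like nuclei stand beside the genes they touch most. In these bulk-like sums, more cells of a type and more RNA per cell cannot be told apart.

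The GABAergic-like nuclei of the 2 vectors were spread differently over subclusters. Subcluster 0, led by Pdyn, Ifit1 and Lama4, held 16 of 29 GABAergic-like nuclei of AiE0452h and 1 of 27 of AiE0475m. Subcluster 6, led by St18 and Pcsk6, held 0 and 7 nuclei in the same order. Subcluster 1, led by Mybpc1, Adm and Lrrc38, held 6 of AiE0452h and 9 of AiE0475m, and the Pvalb-like subcluster 2, led by Anp32e and Tac1, held 2 and 4. The Sst-like subcluster 5, led by Chodl, Hhip and Nos1, held 1 and 2. The name of subcluster 2 comes from its nuclei of all vectors: both AiE0452h nuclei in it, numbers 20 and 28, had no Pvalb reads and had 338 and 669 CPM of Sst, and 3 of the 4 of AiE0475m also had Sst reads. Subclusters 0, 1 and 6 stay unnamed because no marker of their best subclass was among the 10 genes that led them, which a name required. Over their nuclei of all vectors, the best marker score was for Sst in subcluster 0 (0.725, 4 markers detected). It was for Pvalb in subclusters 1 (0.760, 6 markers) and 6 (0.639, 4 markers). Over all 20 vectors, subcluster 0 held 49 nuclei of 14 vectors and subcluster 6 held 21 nuclei of 9 vectors.

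**Figure D1:**
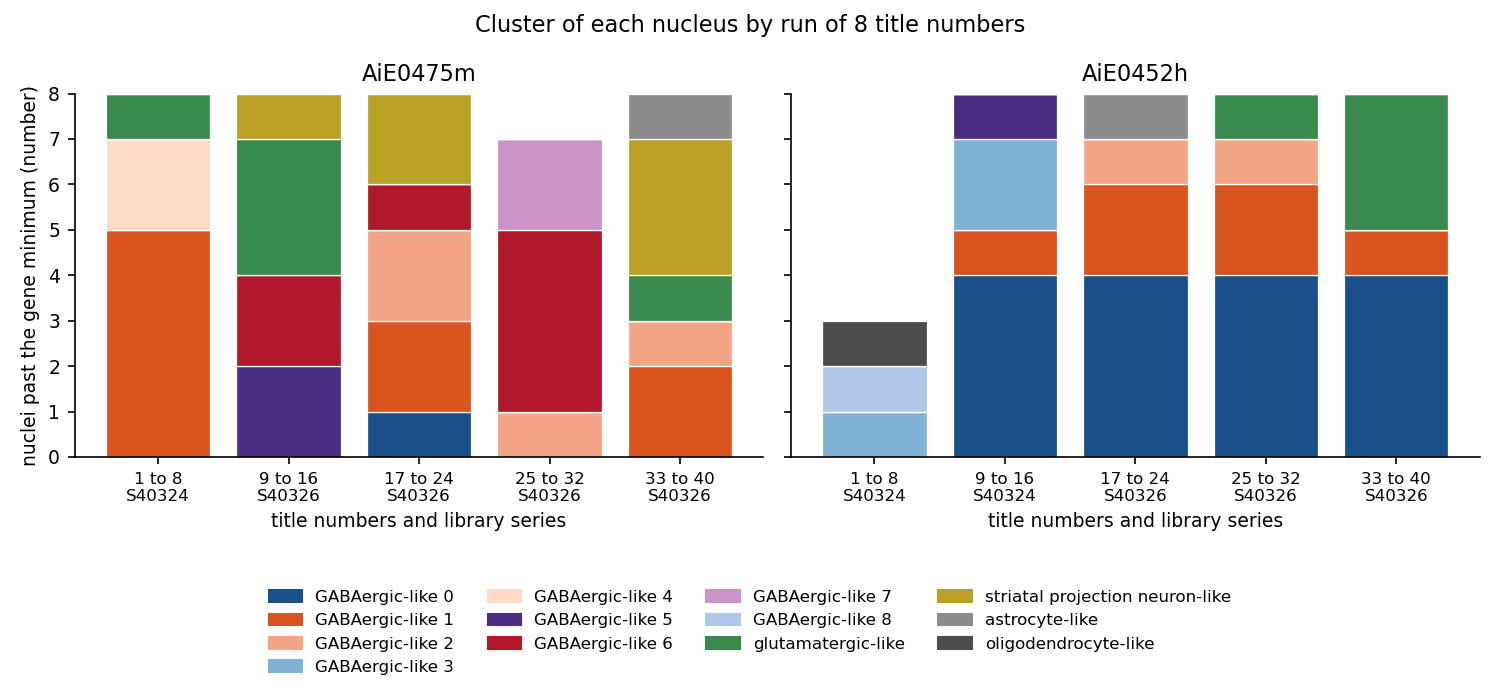
Number of kept nuclei (y axis) in each cluster (colors; numbers are GABAergic-like subclusters) by run of 8 title numbers with its library series (x axis), for AiE0475m (left) and AiE0452h (right). Subcluster 0 holds 4 nuclei of AiE0452h in each of the runs 9 to 16, 17 to 24, 25 to 32 and 33 to 40, and 1 nucleus of AiE0475m in all.

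Across the runs of 8 title numbers, subcluster 0 held 4 nuclei of AiE0452h in each run but the first, in which 3 nuclei passed the minimum. The nuclei of AiE0475m were less evenly spread. In the first run, the 8 nuclei of S40324, 5 lay in subcluster 1 and 2 in subcluster 4, whereas 4 of the 7 nuclei of subcluster 6 were numbers 27, 28, 29 and 31. What the runs stand for is not given in the labels.

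Pvalb (chr15:78191114-78206400, mm10) was read in 18 of 39 nuclei of AiE0475m (46.2%, 30.1 to 62.8%) and in 9 of 35 of AiE0452h (25.7%, 12.5 to 43.3%). In nuclei with a read its level was 73.2 to 1113 CPM (median 356) in AiE0475m and 74.9 to 1637 CPM (median 325) in AiE0452h. The levels in nuclei with a read overlapped over nearly their whole range. All of these nuclei were GABAergic-like, that is 18 of 27 (66.7%, 46.04 to 83.5%) and 9 of 29 (31.03%, 15.3 to 50.8%). In nuclei of other classes Pvalb was read in 0 of 12 and 0 of 6, and in 19 of 426 such nuclei of all 20 vectors (4.46%), at a median depth of 267930 counts against 254844 in GABAergic-like nuclei.

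The summed Pvalb level went the other way, with 187 CPM in AiE0475m and 259 CPM in AiE0452h (ratio 0.723, counting interval 0.681 to 0.767). AiE0452h number 21, the deepest nucleus, held 55.8% of the Pvalb reads of its vector, against 12.4% for the top nucleus of AiE0475m. Without number 21 the ratio was 1.49, and the mean over nuclei gave 1.40. The ratio was 3.50 in S40324 and 0.440 in S40326. The direction of the Pvalb sum thus depended on 1 nucleus and differed between the library series.

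Within S40324, Pvalb was read in 7 of 8 nuclei of AiE0475m and 1 of 11 of AiE0452h. Within S40326 it was read in 11 of 31 (35.5%) and 8 of 24 (33.3%), so the shares differed by little there. By subcluster, the Pvalb reads of AiE0475m came from 9 of 9 nuclei of subcluster 1 (582 CPM), 3 of 4 of subcluster 2 (155 CPM), 2 of 2 of subcluster 4 (551 CPM) and 4 of 7 of subcluster 6 (240 CPM). Those of AiE0452h came from 6 of 6 nuclei of subcluster 1 (1020.2 CPM) and 3 of 16 of subcluster 0 (21.4 CPM). Every nucleus of subcluster 1 thus had Pvalb reads under both vectors.

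Sst (chr16:23889573-23890958, mm10) showed the opposite order of shares, with reads in 9 of 39 nuclei of AiE0475m (23.1%, 11.1 to 39.3%) and 20 of 35 of AiE0452h (57.1%, 39.4 to 73.7%). In nuclei with a read its level was 76.7 to 21916 CPM (median 783) in AiE0475m and 101 to 17556 CPM (median 2427) in AiE0452h. GABAergic-like nuclei with Sst reads were 8 of 27 (29.6%, 13.8 to 50.2%) and 20 of 29 (69.0%, 49.2 to 84.7%). In nuclei of other classes Sst was read in 1 of 12, 0 of 6 and, over all 20 vectors, 34 of 426 (7.98%). The medians of both vectors' Sst-positive nuclei lay within each other's range.

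Summed Sst levels were closer together than the shares, at 1686 CPM in AiE0475m and 2042 CPM in AiE0452h (ratio 0.826, counting interval 0.809 to 0.843). AiE0475m numbers 14 and 15, at 12713 and 21916 CPM, held 87.1% of its Sst reads, and without them the ratio was 0.116. Both lie in the Sst-like subcluster 5 and also held reads of Npy (9610.3 and 28661 CPM), Nos1 and Chodl. Over nuclei without Nos1 reads, Sst summed to 248 CPM in AiE0475m (7 of 35 nuclei with a read) and 1142 CPM in AiE0452h (18 of 33). In AiE0452h, 15 of the 16 nuclei of subcluster 0 had Sst reads (3674 CPM summed). No Sst read fell in the 8 nuclei of AiE0475m in S40324, while the ratio within S40326 was 1.15.

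**Figure D2:**
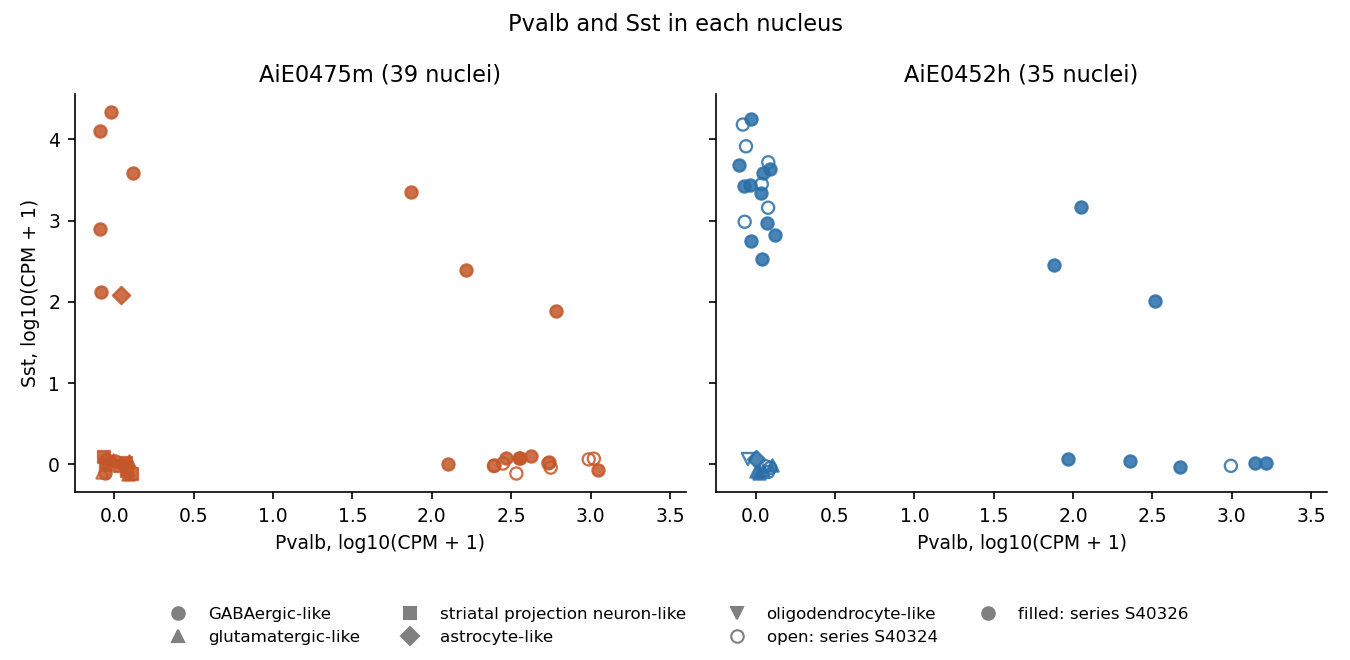
Pvalb (x axis) against Sst (y axis), both log10(CPM + 1), in each kept nucleus of AiE0475m (left, 39) and AiE0452h (right, 35). Marker shape is the cluster name, open markers are library series S40324, filled ones S40326, and nuclei at 0 are spread by a small random offset; 15 nuclei of AiE0475m and 6 of AiE0452h have Pvalb reads alone, 6 and 17 have Sst reads alone, and 3 of each have both.

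Pvalb without Sst was found in 15 nuclei of AiE0475m and 6 of AiE0452h, Sst without Pvalb in 6 and 17, both in 3 and 3, and neither in 15 and 9. Among GABAergic-like nuclei, 4 of 27 and 3 of 29 had neither. In S40324 the nuclei divided into 7 of 8 with Pvalb alone for AiE0475m, against 1 of 11 with Pvalb alone and 6 of 11 with Sst alone for AiE0452h. In S40326 Pvalb alone was found in 8 of 31 and 5 of 24, and Sst alone in 6 of 31 and 11 of 24.

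**Figure D3:**
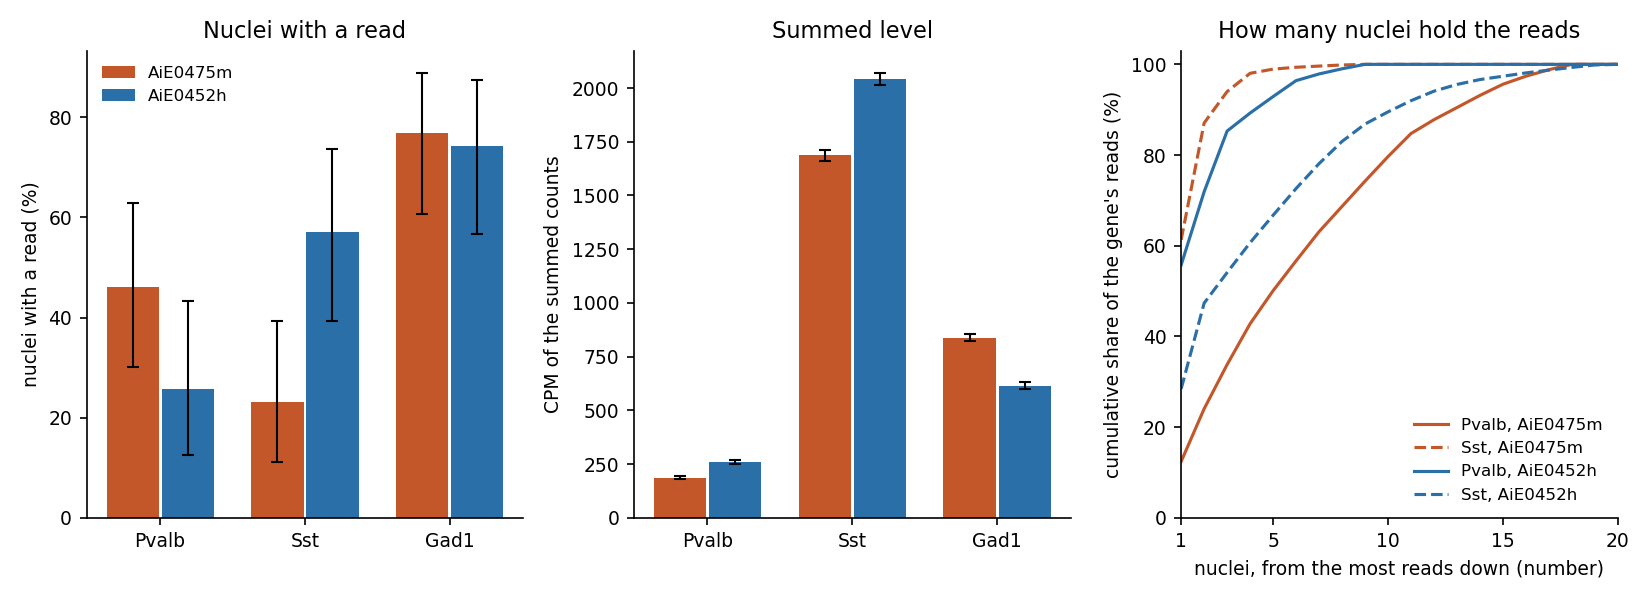
Left, percent of kept nuclei with a read of Pvalb, Sst or Gad1 with exact 95% binomial intervals; middle, CPM of the summed counts with exact 95% Poisson intervals; right, cumulative percent of a gene's reads (y axis) held by the nuclei with the most reads (x axis). The Pvalb share is higher in AiE0475m (46.2 against 25.7%) while its sum is lower (187 against 259 CPM), and 1 nucleus holds 55.8% of the Pvalb reads of AiE0452h.

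Across all genes, no statistical test was possible, and a gene is called tested when it reached 10 CPM in 1 vector and had reads in at least 5 of the 74 nuclei, and counts as called when its summed levels differed by 4-fold or more. Of 10092 genes tested, 741 (7.34%) were called higher in AiE0475m and 486 (4.82%) higher in AiE0452h. Of the 741, 454 (61.3%) were also called within GABAergic-like nuclei and 486 (65.6%) lay in the same direction in both library series. Of the 486 higher in AiE0452h, 303 (62.3%) and 321 (66.0%) did so. A called gene had reads in a median of 7 and 6 nuclei, and 449 of the 741 and 207 of the 486 were still called without the nucleus holding most of its reads. Calls thus often rested on few nuclei.

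The 14 genes of the Pvalb interneuron list included 12 that were tested, of which 3 were called higher in AiE0475m and 0 higher in AiE0452h, against 7.34% and 4.82% of all genes tested. The list's median log2 ratio was 0.44, with 0.04 over all genes tested. The called genes were Tac1, Pthlh and Il1rapl2, and the same 3 were called within GABAergic-like nuclei (list median 0.81, all genes 0.05). Pvalb itself chose the pair and counts among the 9 that were not called.

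Tac1 (chr6:7554879-7565834, mm10), the precursor of substance P, was read in 15 of 39 nuclei of AiE0475m, at 6.80 to 5110.3 CPM (median 655), and in 0 of 35 of AiE0452h. Its sums of 697 and 0 CPM gave an at least 2373-fold higher level in AiE0475m against the floor of 3 counts over the vector. In S40324 it was read in 3 of 8 nuclei of AiE0475m, at 6.80, 118 and 4835 CPM, so its level there came mainly from number 6, the highest. Of the 15 nuclei, 11 were GABAergic-like, including 3 of 4 of the Pvalb-like subcluster 2 (3217 CPM) and 4 of 9 of subcluster 1 (142 CPM), and 4 were among the 6 striatal projection neuron-like nuclei (1466 CPM). Within GABAergic-like nuclei the levels were 725 and 0 CPM. Tac1 ranked 3 and 19 among the 20 vectors. Over all 20 vectors it was read in 23.9% of GABAergic-like nuclei and 25.4% of nuclei of other classes, which include striatal projection neuron-like nuclei, a type that makes substance P.

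Pthlh (chr6:147252101-147264183, mm10), encoding parathyroid hormone-like hormone, was read in 6 nuclei of AiE0475m at 314 to 2231 CPM and in 2 of AiE0452h at 195 and 337 CPM. All 6 belong to subcluster 6, whose 7th nucleus had none. The sums were 207 and 15.2 CPM (13.7-fold), but in S40324 the order was the reverse (ratio 0.0631), with 0 nuclei of AiE0475m. Il1rapl2, a synaptic interleukin-1 receptor family protein, was read in 14 and 4 nuclei, at 210.0 and 51.1 CPM (4.11-fold, and 9.65-fold and 3.36-fold in S40324 and S40326). It was found in 6 of 9 nuclei of subcluster 1 and 6 of 7 of subcluster 6 in AiE0475m. The nucleus with most Il1rapl2 reads held 25.2% of the AiE0475m sum.

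The remaining Pvalb list genes stayed under 4-fold. Cplx1, a complexin that acts on vesicle fusion, was read in 25 nuclei of AiE0475m (40.8 to 1733 CPM, median 399) and 16 of AiE0452h (14.2 to 828 CPM, median 366), with sums of 370.3 and 161 CPM. Erbb4, the neuregulin receptor of interneurons, was read in 23 and 13 nuclei with sums of 306 and 269 CPM. Its reads were found in all 22 GABAergic-like nuclei of AiE0475m in subclusters 1, 2, 4 and 6, and in none of the 16 AiE0452h nuclei of subcluster 0. Osbpl3, an oxysterol-binding protein relative, was read in 18 and 16 nuclei at 130.3 and 162 CPM.

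Kcnc1 and Kcnc2 encode Kv3 potassium channels, which repolarize fast-spiking cells, and neither was called. Kcnc1 was read in 28 nuclei of each vector, at 459 and 659 CPM, and its ratio was 3.56 in S40324 and 0.481 in S40326. Kcnc2, at 217 and 192 CPM, was read in 18 and 21 nuclei. In subcluster 1 the Kcnc1 level was 1369 CPM in AiE0475m and 1505 CPM in AiE0452h.

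Of the 22 genes of the Sst interneuron list, 16 were tested, 4 were called higher in AiE0452h (Pdyn, Crh, Reln and Elfn1) and 2 higher in AiE0475m (Nos1 and Nr2f2, both the other way in S40324, with ratios of 0.00941 and 0.347), and the list's median log2 ratio was -1.24. Within GABAergic-like nuclei 5 of 15 were called higher in AiE0452h (Cbln4 in addition) and Nos1 higher in AiE0475m, with a median of -1.03. The background there was 5.98% of 9370 genes higher in AiE0452h and 7.6% higher in AiE0475m. In S40324 and S40326 the list's medians were -4.55 and -0.92. Sst itself chose the pair and enters these medians, so the list is no independent evidence for the Sst difference. It was not called over all nuclei and was called higher in AiE0452h in S40324.

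Pdyn (chr2:129686565-129699844, mm10), the precursor of dynorphin opioid peptides, was read in 9 of 35 nuclei of AiE0452h at 30.4 to 1146 CPM (median 589), all 9 in subcluster 0. In AiE0475m it was read in 1 nucleus, at 219 CPM, a striatal projection neuron-like one. The sums were 6.52 and 117 CPM (a ratio of 0.0556), and within GABAergic-like nuclei 0 and 139 CPM, at least 316-fold higher.

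Reln (chr5:21884454-22344702, mm10), a secreted matrix protein, was read in 15 nuclei of AiE0452h at 29.7 to 2090.1 CPM (median 461) and 5 of AiE0475m at 140.2 to 586 CPM. The sums were 35.1 and 261 CPM (7.43-fold higher in AiE0452h), with ratios of 0.149 and 0.133 in S40324 and S40326. In AiE0452h 13 of the 15 nuclei lie in subcluster 0, and in AiE0475m 3 of the 5 are striatal projection neuron-like. Within GABAergic-like nuclei the sums were 16.01 and 310 CPM (19.4-fold).

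Calb1 and Crhbp had lower sums in AiE0475m without reaching 4-fold. Calb1 encodes the calcium buffer calbindin and was read in 14 and 18 nuclei at 108 and 335 CPM. Crhbp, which binds corticotropin-releasing hormone, was read in 7 and 12 nuclei at 144 and 320.4 CPM. Of the 12 AiE0452h nuclei with Crhbp reads, 10 lie in subcluster 0. Crh and Elfn1 were called on 2 and 3 nuclei, at 3.01 and 30.2 CPM, and on 1 and 5 nuclei, at 5.01 and 26.5 CPM.

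Genes of the long-range Sst type ran against the list. Nos1, the neuronal nitric oxide synthase, was read in 4 and 2 nuclei at 224 and 55.5 CPM (4.04-fold), 99.1% of the AiE0475m reads being in numbers 14 and 15. Without them its ratio was 0.0393. Npy was read in 11 and 18 nuclei at 1881 and 1302 CPM, with 71.9% of the AiE0475m reads in number 15. Chodl was read in 2 and 0 nuclei at 91.5 and 0 CPM, too few nuclei for it to be tested, and it is named here after its values were seen. These 3 sums thus came mainly from a pair of nuclei.

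**Figure D4:**
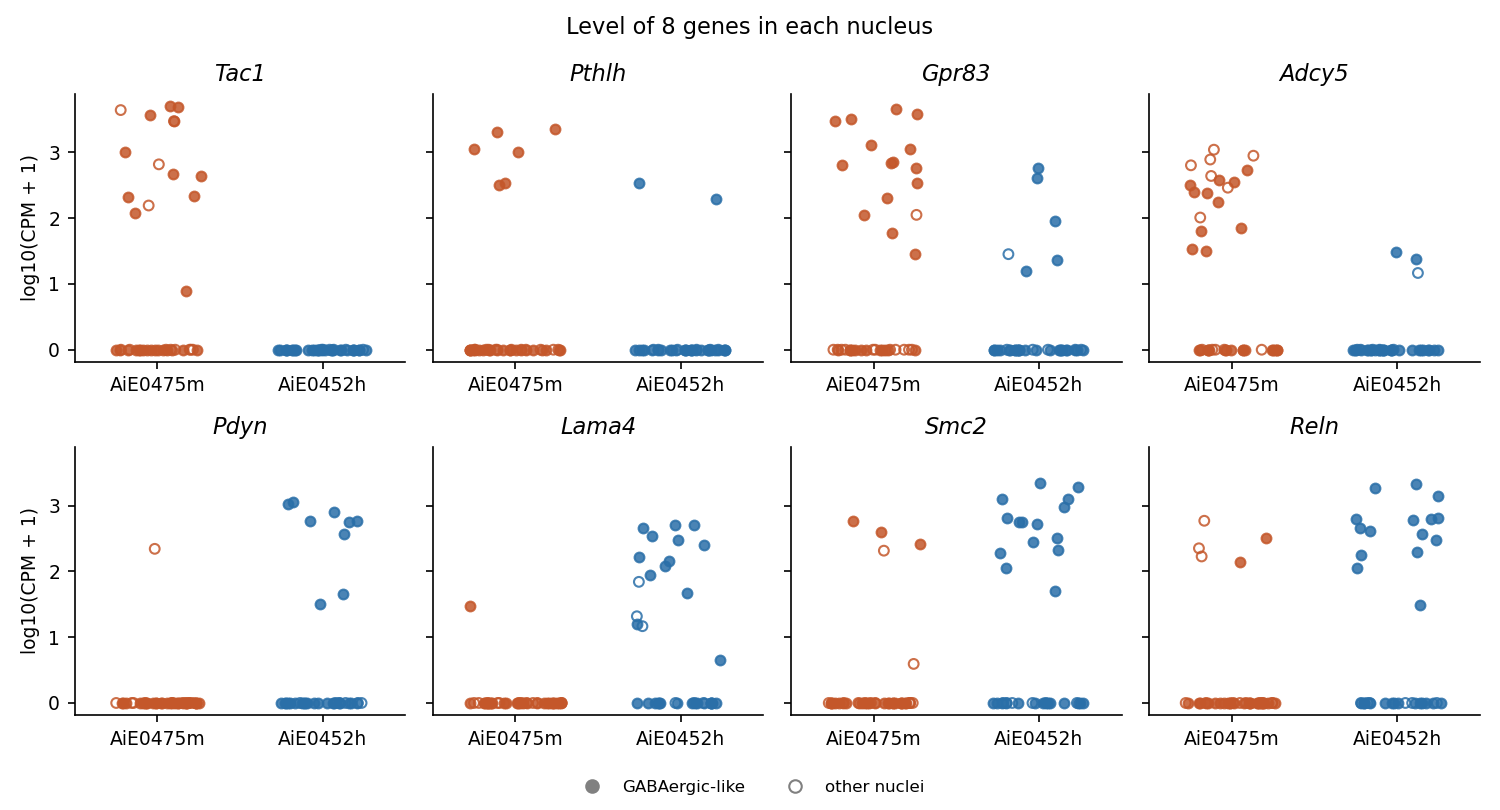
Level of 8 genes, log10(CPM + 1) on the y axis, in each of 39 kept nuclei of AiE0475m (orange) and 35 of AiE0452h (blue); filled points are GABAergic-like nuclei, open ones are other nuclei, and sideways spread is random. Tac1 is read in 15 and 0 nuclei, Pthlh in 6 and 2, Gpr83 in 16 and 6, Adcy5 in 18 and 3, Pdyn in 1 and 9, Lama4 in 1 and 16, Smc2 in 5 and 15 and Reln in 5 and 15.

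Genes were also named across the whole table, by a rule that asked for 50 CPM and reads in 25% of nuclei in the higher vector and a ratio of 2-fold or more in both library series. It was met by 243 genes higher in AiE0475m and 187 higher in AiE0452h, and the 12 with the largest ratio each way are named. Higher in AiE0475m were Tac1, Adcy5, Yif1a, Cxxc4, Senp8, Gpr83, Polr1d, C2cd2l, Eef2k, Mob1b, Ankzf1 and Nr2c1. Higher in AiE0452h were Lama4, Ddx31, Zfp110, Pdyn, Gm28320, Pla2g12a, Mrps25, Dph3, Smc2, Tbc1d4, Rbm42 and Ackr1. Since agreement of the series chose them, it is no evidence for them.

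Gpr83 (chr9:14860210-14870789, mm10), a G protein-coupled receptor, was read in 16 nuclei of AiE0475m at 27.2 to 4606 CPM (median 668) and 6 of AiE0452h at 14.8 to 574 CPM (median 58.1). The sums were 551 and 34.3 CPM (16.1-fold), and within GABAergic-like nuclei 802 and 40.5 CPM (19.8-fold). All 7 nuclei of subcluster 6 had reads (2650.3 CPM), and no nucleus of AiE0452h lay in that subcluster. In subcluster 2 its levels were 353 CPM (3 of 4 nuclei) and 359 CPM (1 of 2), the AiE0452h nuclei there having no Pvalb reads.

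Adcy5 (chr16:35154877-35305738, mm10), an adenylyl cyclase abundant in the striatum, was read in 18 nuclei of AiE0475m at 30.8 to 1095 CPM (median 302) and 3 of AiE0452h at 13.7 to 29.6 CPM. The highest of these 3 lay just under the lowest of AiE0475m, and how many other genes have such a gap was not counted. The sums were 169 and 1.86 CPM (90.8-fold). In striatal projection neuron-like nuclei 5 of 6 had reads (656 CPM), and among GABAergic-like nuclei 11 of 27 and 2 of 29 did (97.8 and 2.10 CPM, 46.7-fold), 6 of the 11 in subcluster 6. Although AiE0475m was far above AiE0452h, its rank was 11 of 20 vectors, and AiE0452h ranked 20.

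Of the other genes higher in AiE0475m, Cxxc4, a Wnt pathway inhibitor, was read in 18 and 4 nuclei at 82.0 and 3.82 CPM (21.5-fold). Its 18 nuclei of AiE0475m were 13 GABAergic-like, 2 glutamatergic-like, 2 striatal projection neuron-like and 1 astrocyte-like. Yif1a, a membrane protein of transport between endoplasmic reticulum and Golgi, was read in 10 and 1 nuclei at 98.9 and 2.25 CPM (43.9-fold). Its gene overlaps Cnih2 on the other strand, whose reads cannot be told apart. Senp8, a NEDD8 protease, was read in 12 and 5 nuclei at 56.9 and 2.94 CPM. The other 6, from Polr1d to Nr2c1 in the order above, had ratios from 10.3 to 14.7.

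Lama4 (chr10:38965515-39110188, mm10), a laminin chain of basement membranes, was read in 16 nuclei of AiE0452h at 3.47 to 509 CPM (median 133) and in 1 of AiE0475m, at 28.5 CPM. The sums were 0.601 and 73.1 CPM (122-fold higher in AiE0452h), and within GABAergic-like nuclei 0.881 and 85.2 CPM (96.7-fold). Of the 16 nuclei 12 lay in subcluster 0, 1 in subcluster 8 and 3 were glutamatergic-like. AiE0452h ranked 1 of the 20 vectors for Lama4, and the median of the other 18 was 7.04 CPM. Laminins are also made by vascular cells, of whose 7 markers AiE0452h had reads of 2, summing to 0.196 CPM. The part of such cells in the Lama4 reads was not tested.

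Smc2 (chr4:52439243-52488260, mm10), a condensin subunit, was read in 15 nuclei of AiE0452h at 49.9 to 2224 CPM (median 555) and 5 of AiE0475m at 2.92 to 575 CPM. The sums were 27.6 and 285 CPM (10.3-fold), with 14 of the 15 nuclei in subcluster 0. Pdyn, Lama4 and Smc2 were among the genes that led that subcluster, which holds 16 nuclei of AiE0452h and 1 of AiE0475m. Their difference between the vectors and that makeup are therefore 1 observation and not separate ones.

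Several genes higher in AiE0452h overlap another gene. Ackr1, a chemokine-binding receptor of vessels and red cells, was read in 12 and 4 nuclei of AiE0452h and AiE0475m (114 and 12.4 CPM), and it overlaps Cadm3, a neuronal adhesion gene on the same strand. Dph3, for diphthamide synthesis, was read in 12 and 4 nuclei (104 and 9.52 CPM) and overlaps Oxnad1. Mrps25 overlaps Nr2c2, Rbm42 overlaps Gm21982, and Gm28320 lies inside Tmeff2. Reads of the partners cannot be told apart here. Pla2g12a, a secreted phospholipase with no overlapping gene, was read in 11 and 6 nuclei at 121 and 10.1 CPM (11.9-fold).

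Neuropeptide genes numbered 20, with 10 tested, 3 higher in AiE0475m (Penk, Tac1 and Pthlh) and 2 higher in AiE0452h (Pdyn and Crh), against 7.34% and 4.82% of all genes tested. Tac1, Pthlh, Pdyn and Crh are the same calls as in the Pvalb and Sst interneuron lists and not further ones. Penk, the enkephalin precursor, was read in 11 nuclei of AiE0475m at 161 to 4006 CPM (median 729) and with 1 count in 1 nucleus of AiE0452h. The sums were 335 and 0.0979 CPM, a ratio of 3426 with a counting interval from 614 to 135348. This ratio is not comparable with the bound given for Tac1, which uses the floor of 3 counts. The 11 nuclei spread over classes, with 6 GABAergic-like, 2 glutamatergic-like, 1 astrocyte-like and 2 in the striatal projection neuron-like cluster, of which 1 is number 21. AiE0475m ranked 14 and AiE0452h 18 of 20 vectors for Penk, so the median of the other 18, 633 CPM, was above both. Vip, named after its values were seen, was read in 0 and 2 nuclei, 95.9% of its reads in AiE0452h number 11.

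Receptor and channel lists held few called genes each, to be read against 7.34% higher in AiE0475m and 4.82% higher in AiE0452h of all genes tested. Of 6 tested metabotropic glutamate receptor genes 1 was called each way, and of 3 tested Kv3 genes 1 was called higher in AiE0475m. None of the 17 ionotropic glutamate receptor genes was called (median log2 0.19), and Gria2, the AMPA receptor subunit, was read in 38 and 34 nuclei at 1692 and 1803 CPM. All 12 GABA-A receptor subunit genes were tested and 2 were called higher in AiE0475m, Gabrg1 (86.8 and 2.35 CPM, 5 and 1 nuclei) and Gabra5 (27.7 and 2.45 CPM, 6 and 1 nuclei). Of 8 sodium channel genes Scn4b was called higher in AiE0475m, and of 15 calcium channel genes Cacna1h was. Of 27 other potassium and HCN channel genes Kcnh3 and Kcns2 were called higher in AiE0475m and Kcnb2 higher in AiE0452h, but in S40324 the ratios of Kcns2 and Kcnb2 were 0.0565 and 25.9, the other way. Kcnip1, a Kv4-associated calcium sensor, was read in 19 and 24 nuclei at 96.2 and 310.0 CPM (3.22-fold higher in AiE0452h).

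Lineage factors of the medial ganglionic eminence, the embryonic source of Pvalb and Sst cells, gave 0 calls among 9 tested (median log2 -0.59). Mef2c was read in 28 and 32 nuclei at 438 and 789 CPM, and Sox6 in 21 and 23 nuclei at 107 and 167 CPM. Of 7 tested factors of the caudal ganglionic eminence Nr2f1 and Nr2f2 were called higher in AiE0475m and Npas3 higher in AiE0452h, against 7.34% and 4.82% of all genes tested. Nr2f2 was read in 2 and 3 nuclei, had no reads in the S40324 nuclei of AiE0475m, against 5.65 CPM in those of AiE0452h, and was not called within GABAergic-like nuclei, where Nr2f1 and Nfix were. Npas3 was read in 7 and 17 nuclei at 17.3 and 101 CPM, and all 17 were GABAergic-like. The GABA synthesis, release and uptake list gave 0 calls among 6 tested.

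Of the 12 striatal projection neuron markers, 9 were tested over all nuclei and 7 were called higher in AiE0475m (median log2 4.59). Rgs9, a regulator of dopamine receptor signalling, was read in 10 and 3 nuclei at 184 and 7.73 CPM (23.8-fold), with a ratio of 0.125 in S40324, where neither vector had a striatal projection neuron-like nucleus. Within GABAergic-like nuclei its levels were 8.96 and 9.20 CPM, and 2 of 5 tested markers, Adcy5 and Ppp1r1b, were called. Of the 7 called markers, Adcy5 and Ppp1r1b were thus the ones also called within GABAergic-like nuclei.

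**Figure D5:**
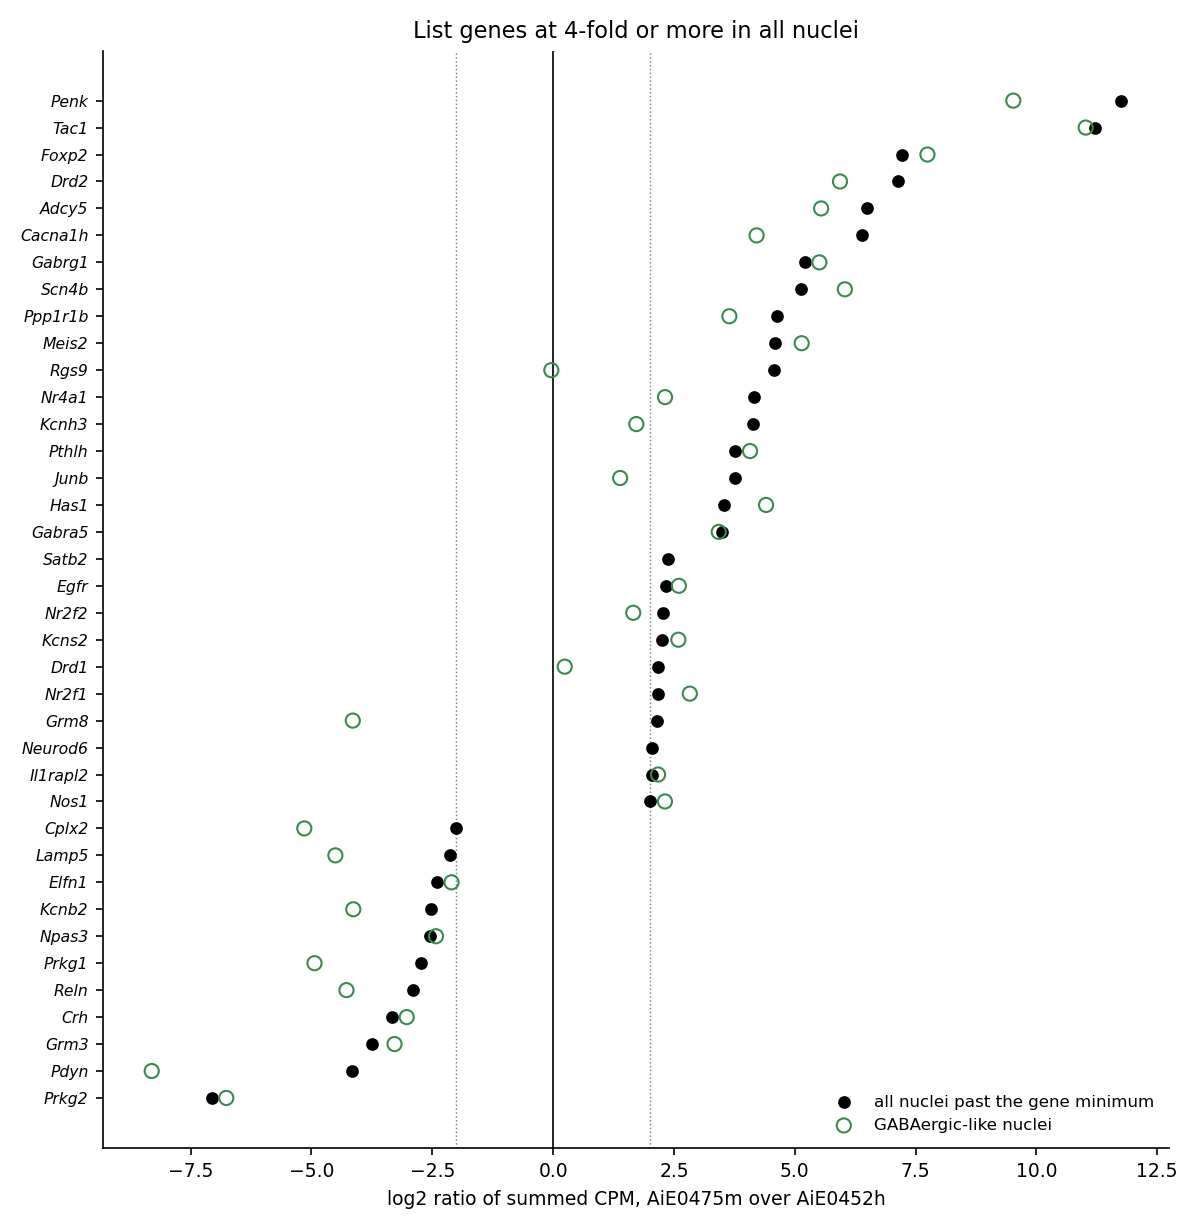
Log2 ratio of summed CPM, AiE0475m over AiE0452h (x axis), of list genes at 4-fold or more over all kept nuclei (y axis, ordered by ratio); black points are all kept nuclei, green circles GABAergic-like nuclei, dotted lines 4-fold, and a sum of 0 counts as 3 counts, so such points are bounds. Tac1 and Adcy5 stay far to the right within GABAergic-like nuclei, Pdyn stays to the left, and Rgs9 moves to 0.

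No named subcluster held 4 or more nuclei of both vectors, the minimum set for comparing like nuclei. A coarser clustering (Leiden resolution 0.5) was used for this after the data were seen, in which a Pvalb-like group held 15 nuclei of AiE0475m and 7 of AiE0452h. In it Pvalb was read at 439.6 and 885 CPM, in 14 of 15 and 6 of 7 nuclei. The group held 2550 of the 2645 Pvalb reads of AiE0452h. Number 21 held 55.8% of those 2645 reads, so the Pvalb level of AiE0452h in this group came mainly from 1 nucleus. Levels without number 21 were not computed for this group. Gad1 was read at 959 and 1073 CPM, Erbb4 at 686 and 779 CPM and Kcnc1 at 1023 and 1630.2 CPM. Of 11 tested Pvalb list genes 1 was called, Tac1, at 1441 CPM (8 of 15 nuclei) and 0 CPM (0 of 7). The list's median log2 ratio was 0.00, with 0.17 over the 6132 genes tested, of which 16.6% were called higher in AiE0475m and 6.43% higher in AiE0452h. Of 7 tested Sst list genes Calb1 was called higher in AiE0452h (26.8 and 390.5 CPM, 4 and 3 nuclei), while Sst (278 and 54.8 CPM, 3 and 2 nuclei) and Crhbp (158 and 19.4 CPM, 5 and 1 nuclei) were called higher in AiE0475m. The Sst reads of AiE0475m there came mainly from number 23, at 2256 CPM, against 243 and 783 CPM in numbers 22 and 34. Cxxc4 was called higher in AiE0475m (131 and 7.64 CPM, 9 and 2 nuclei).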

How the data were processed

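The authors deposited a table of read counts, 32285 genes by 2501 single-nucleus libraries. Per the submitters' processing notes the tools include STAR 2.7.2a and the build is mm10; the counting step is not given in the sources used here. Columns were matched to labels by library name: 800 matched, and 1701 columns carry no label here and were not used. Nuclei with reads of 1000 or more genes were kept. Reads, not molecules, are counted, and strand is not kept. Symbols and positions come from the GENCODE M21 annotation.

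Counts were summed per vector and divided by the summed total (CPM), with exact Poisson intervals for levels and Clopper-Pearson intervals for shares, both at 95% and covering counting error only. Each vector is 1 sample, so no test was made. A gene was tested at 10 CPM in 1 vector and reads in 5 nuclei, and called at 4-fold; a sum of 0 entered ratios as 3 counts over the vector. Clusters came from scanpy 1.11.5 and leidenalg 0.10.2 (2000 variable genes, 30 principal components, 15 neighbours, resolution 1) with 313 genes of 30 lists kept out. A name needed 3 markers, each in 25% of nuclei, and a marker among the 10 genes that led the cluster.

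Named genes were the 12 each way with the largest ratio at 50 CPM or more, reads in 25% of nuclei and 2-fold in both library series, and from each list the called members and up to 4 others by level. The members and lists were chosen with earlier results of these data known. Alternatives were edgeR 4.0.16 TMM scaling, the mean over nuclei, other gene minimums, each library series, thinning to 150000 counts, other call limits, other clusterings and leaving out runs of 8 title numbers or single nuclei. The script was tested on simulated data. Python 3.11.15, numpy 2.4.6, pandas 2.3.3, scipy 1.17.1, matplotlib 3.10.9 and R 4.3.3 were used. Reporter transcripts were not analysed here. Some genes are not reported here.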

Additional observations from a re-analysis of the deposited data

Results flagged for a closer look

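Nuclei below the minimum of 1000 genes entered no comparison, and some held reads of the genes the vectors were compared on. AiE0475m number 26, with 864 genes, held 22253 CPM of Sst and 44355 CPM of Npy. AiE0452h number 2 held 662 CPM of Pvalb and number 6 held 987 CPM, both beside high levels of oligodendrocyte markers. Their part in the shares of nuclei with a read was not tested beyond the lower gene minimums given with the processing.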

How the results depend on the processing

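No paired analysis was possible because each vector is 1 sample and no result comes from a test. Genes called higher in AiE0475m, 741, numbered 1905 at 2-fold and 197 at 50 CPM, and those higher in AiE0452h, 486, numbered 1574 and 176; leaving out runs of 8 title numbers gave 664 to 1045 and 445 to 589. The Gad1 ratio of 1.36 stayed above 1: TMM 1.32, mean over nuclei 1.47, 500 genes or no minimum 1.56, 2000 genes 1.29, S40324 1.18, S40326 1.41, thinned 1.53, without AiE0452h number 21 1.57, without the nucleus with most reads 1.22, runs left out 1.08 to 1.84. The Pvalb ratio of 0.723 crossed 1: mean over nuclei 1.40, 2000 genes 0.785, S40324 3.50, S40326 0.440, thinned 1.26, without AiE0452h number 21 (the nucleus with most reads) 1.49, without AiE0475m numbers 14 and 15 0.787, runs left out 0.503 to 1.23. The Sst ratio of 0.826 also did: TMM 0.797, mean over nuclei 0.495, 500 genes or no minimum 1.14, 2000 genes 0.776, S40324 0.000651, S40326 1.15, thinned 0.496, without AiE0452h number 21 0.753, without AiE0475m numbers 14 and 15 0.116, without AiE0475m number 39 and AiE0452h number 36 0.845, without the nucleus with most reads 1.12, runs left out 0.144 to 1.03.

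In S40324 alone the shares of nuclei with Pvalb were 87.5% and 9.09%, and with Sst 0% in AiE0475m. Pvalb-like nuclei, 4 and 2, numbered 15 and 7 at resolution 0.5, 0 and 0 at resolution 2, 14 and 7 with list genes kept in, and 17 and 6 by a marker score. Sst-like nuclei, 2 and 1, numbered 3 and 18 at resolution 0.5, 0 and 4 at resolution 2, 1 and 16 with list genes kept in, and 4 and 10 by a marker score, so their order turned round under all 4 of these alternatives.

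Of 1289 ratios of 59 genes under these settings 1277 kept their direction. This count cannot measure robustness, since 590 of the ratios come from leaving out single runs and share most nuclei with the main result. Of the 50 ratios in S40324 alone, 41 kept their direction. Genes named by the rule of 2-fold in both library series could not reverse there. In S40324 Egfr had a ratio of 0.0368, Junb 0.879, Kcnb2 25.9, Kcns2 0.0565, Nos1 0.00941, Nr2f2 0.347, Prkg1 8.64, Pthlh 0.0631 and Rgs9 0.125, all the other way. With runs left out Neurod6 ranged from 0.767 to 102 and Nos1 from 0.0491 to 36.7. Without AiE0475m numbers 9 to 16 Neurod6 had 0.767 and Nos1 0.0491, and without numbers 14 and 15 Nos1 had 0.0393. The median log2 ratio of all genes tested was 0.13 in S40324 and 0.11 with 500 genes or no minimum. The cause of these shifts was not tested. Settings that leave out single nuclei were chosen after seeing the data. Thinning left out 3 nuclei of each vector.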

Other observations

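Nuclear long noncoding RNAs were near equal in the 2 vectors, with 0 of 7 tested genes called and a median log2 ratio of 0.01. Malat1 was read in all 39 and all 35 nuclei, and Meg3, an imprinted RNA of neurons, in 38 and 33 nuclei at 12265 and 12064 CPM.

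Immediate early genes, which respond to activity or to tissue handling, had 5 tested members, of which Nr4a1 and Junb were called higher in AiE0475m. Nr4a1 was read in 6 and 4 nuclei at 42.0 and 2.35 CPM, and Junb in 8 and 1 nuclei at 93.0 and 6.85 CPM. Within GABAergic-like nuclei the sums of Junb were 21.3 and 8.15 CPM, and in S40324 its ratio was 0.879. Has1, a hyaluronan synthase, was the called gene among 8 tested perineuronal net genes, at 22.9 and 1.96 CPM in 8 and 2 nuclei.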
